A study of Mus musculus with 12 samples.

Results

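The genes of the synaptic vesicle cycle were followed in the hippocampus of 5xFAD mice and their wild-type (WT) counterparts at 7 months of age. They are 39 genes, listed by symbol for their known part in filling, docking, fusing and retrieving vesicles and not by any measured value, and all 39 were found among the 24318 genes of the gene table. The study compared 5xFAD mice, which carry human transgenes with mutations of familial Alzheimer's disease (APP among them) expressed in neurons through regulatory sequence of Thy1, with WT mice that lack them. Hippocampal RNA was sequenced as 12 libraries in 4 groups of 3, with a WT and a 5xFAD group under each of the title prefixes CG and AT. The CG libraries gave the abundance of each gene as FPKM, a fragment count set relative to transcript length and library total. The AT libraries gave a signal for each of 7025 genomic intervals, taken to be back-splice junctions, where the ends of an exon circle meet, and 26 of those junctions lay in 13 of the 39 genes. The labels give genotype, tissue and age, and name no other treatment, strain background or sex. They do not say that the replicates are separate mice, so the p-values measure only the spread between these libraries, which may be technical in part.

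One CG library went against its label. Thy1, whose regulatory sequence drives the transgenes, stood at 296, 308 and 340 FPKM in WT replicates 1 to 3, at 1136 and 1172 in 5xFAD replicates 1 and 2, but only at 305 in the library labelled 5xFAD replicate 3. That library also had the summed microglial marker level of WT, 143 FPKM over 11 markers against 133 to 150 in WT and 559 to 610 in the other two 5xFAD libraries. Each CG comparison is therefore given with all 6 libraries and with the 5 that remain without it. WT replicate 1 stood apart in choroid plexus markers, whose 7 genes summed to 2882 FPKM there and to 45.0 to 499 elsewhere. Replicate 1 of both genotypes had Xist at 0.246 and 0.136 FPKM and Ddx3y, a Y-linked gene, at 18.7 and 16.2. The other 4 libraries had Xist at 99.9 to 112 and Ddx3y at no more than 0.0204. Within each genotype these sex-linked genes set replicate 1 apart, so it did not come from the same mouse as replicates 2 and 3. By these genes each CG group, as labelled, mixed sexes, and the part of sex in the values was not tested. Total FPKM was 385214 to 412157 per CG library, and AT libraries held 191408 to 695539 junction reads, the fewest in 5xFAD replicate 1. The 13 markers of hippocampal excitatory neurons were detected and summed to 1607 to 1789 FPKM, led by Camk2a (WT mean 821) and Nrgn (580). The 9 neocortical and subplate markers summed to 76.9 to 128 FPKM, so detection alone does not tell hippocampus from neocortex.

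Synaptic vesicles are loaded with transmitter, tethered in clusters near the release site, and fused with the plasma membrane when calcium enters the terminal. Fusion is driven by SNARE proteins of the vesicle and of the plasma membrane, timed by synaptotagmins and complexins, and followed by NSF and its SNAP adaptors, which pull spent SNARE complexes apart. Endocytic proteins then retrieve the vesicle membrane and strip its coat. In the hippocampus most terminals release glutamate, and loss of synapses is a known feature of Alzheimer's disease and of mice that model it.

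The pair of vesicular glutamate transporters shows how unequal close relatives were in this tissue, and their promoters are printed for that reason, 250 bases before to 50 after the RefSeq start (build GRCm38.p6, plus strand). Slc17a7 (VGLUT1, the transporter of hippocampal and cortical excitatory neurons) starts in the window chr7:45163671-45163970, which holds 13 CpG. Slc17a6 (VGLUT2, typical of thalamus and brain stem) has a start in the window chr7:51621580-51621879, which holds 8 CpG. Capitals mark the only match to either of the motifs searched.
Slc17a7: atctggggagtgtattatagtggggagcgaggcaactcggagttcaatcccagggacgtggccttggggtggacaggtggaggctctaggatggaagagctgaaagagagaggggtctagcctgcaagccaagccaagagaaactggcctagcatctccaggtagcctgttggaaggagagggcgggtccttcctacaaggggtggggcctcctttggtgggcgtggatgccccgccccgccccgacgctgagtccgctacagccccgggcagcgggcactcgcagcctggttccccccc
Slc17a6: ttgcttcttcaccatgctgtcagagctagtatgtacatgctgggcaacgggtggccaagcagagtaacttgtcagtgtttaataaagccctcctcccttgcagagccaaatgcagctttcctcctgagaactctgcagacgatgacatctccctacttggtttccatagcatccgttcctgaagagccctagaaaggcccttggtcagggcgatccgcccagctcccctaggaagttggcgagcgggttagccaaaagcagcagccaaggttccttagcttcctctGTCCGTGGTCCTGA
The match lies at bases 287 to 300 of the Slc17a6 window, counted from its 5′ end, and is the reverse complement of TCAGNACC followed by any 2 bases and GGAC, part of the element bound by REST, a repressor of neuronal genes. Over both strands this pattern was found in 13 of 32851 promoter windows (0.0396%) and in windows of 2 of the 30 vesicle genes with a RefSeq promoter, Slc17a6 and Rph3a. The cyclic AMP response element TGACGTCA, whose letters read the same on both strands, was found in 588 windows (1.79%) and in those of 3 vesicle genes, Napa, Sh3gl2 and Syn1, so no vesicle gene held both patterns. The 42 windows of the 30 genes had a median of 16 CpG against 7 over all windows. A match is a description of the letters and not of binding.

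Most vesicle genes were abundant in the tissue. The 39 genes together summed to 5729, 6350 and 6170 FPKM in WT replicates 1 to 3 and to 5601, 5784 and 6217 in 5xFAD replicates 1 to 3, 1.36% to 1.65% of total FPKM. Of the 39, 33 lay at or above the 79.9th percentile of the 14500 genes tested in WT level, from Doc2b at 26.3 FPKM to Snap25 at 931, and the remaining 6 lay between 1.77 and 8.61 FPKM. The order in WT began with Snap25, Vamp2 (439), Syp (427), Syt1 (365) and Slc17a7 (351), and ended with Syn3 (8.61), Sv2c (7.10), Slc17a6 (6.58), Doc2a (4.47) and Cplx3 (1.77). Neighbours in that order mostly overlapped between libraries. The WT libraries of one gene lay wholly above those of the next for 10 of the 38 neighbouring pairs, among them Snap25 over Vamp2, Rab3a over Sncb and Doc2b over Syt2. Between WT libraries the vesicle genes had a median coefficient of variation of 10.3% (n = 3 libraries per gene) against 10.4% for the 9601 tested genes with a WT mean of at least 5 FPKM.

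**Figure D1:**
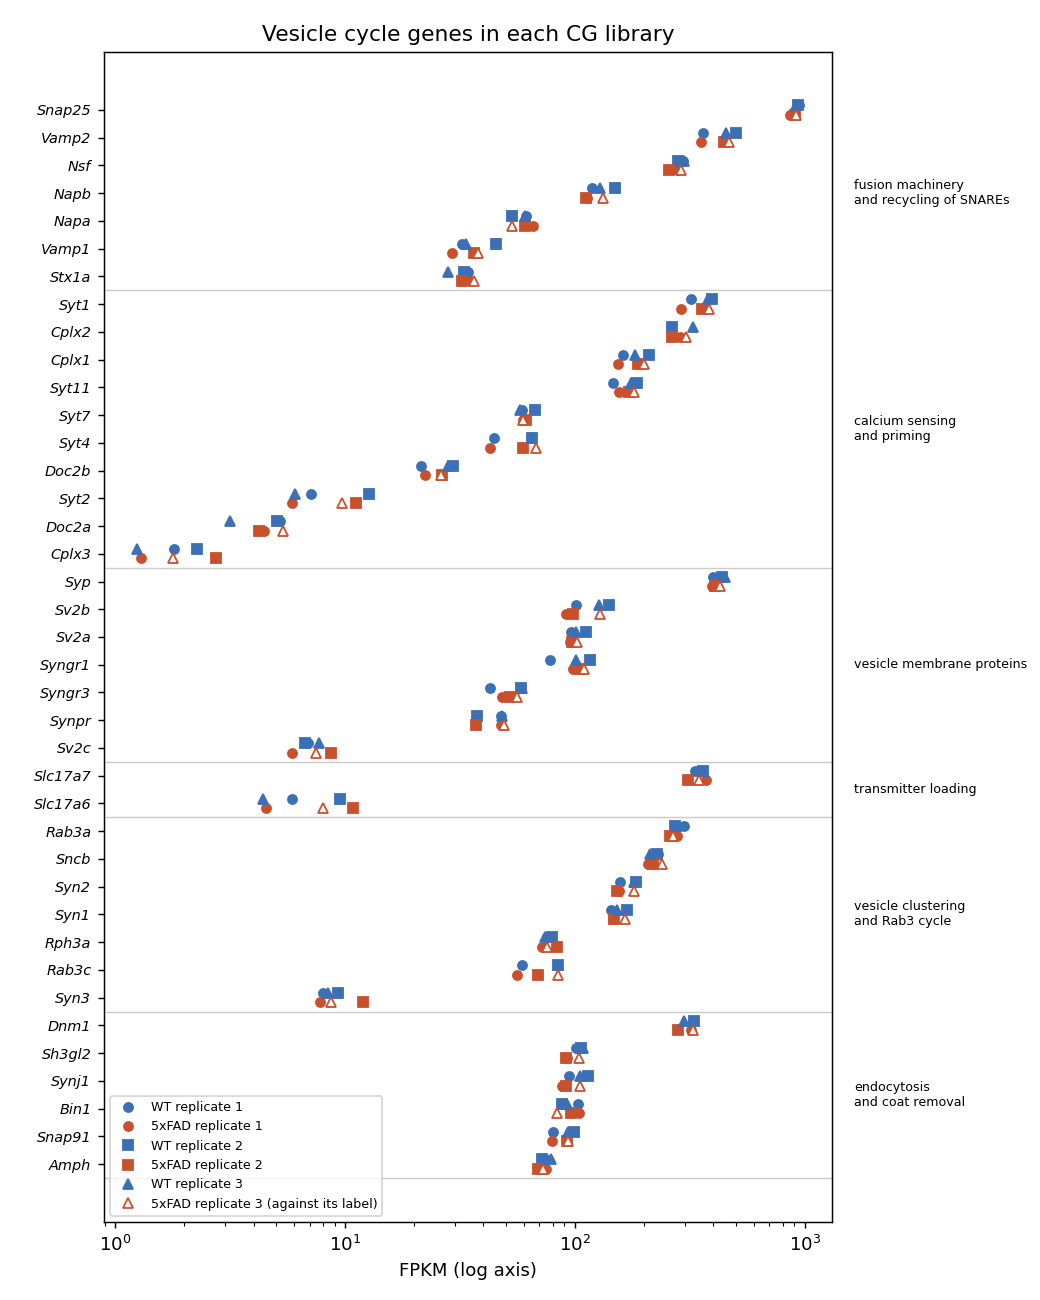
FPKM of the 39 vesicle cycle genes in each of the 6 CG libraries (log axis), ordered by role and by WT level. Blue points are WT replicates, red points 5xFAD replicates, and the open triangle is the library labelled 5xFAD replicate 3; a gene's 6 points sit close together except for low genes such as Syt2, Slc17a6 and Cplx3.

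Among the fusion proteins the plasma membrane SNARE Snap25 led. It read 943, 934 and 916 FPKM in WT replicates 1 to 3, with 862, 904 and 919 in 5xFAD replicates 1 to 3. This was the gene with the smallest relative spread in WT (coefficient of variation 1.48%) and rank 18 of all genes. Vamp2, the main vesicle SNARE, stood at 359, 502 and 456 in WT and 352, 445 and 469 in 5xFAD, with replicate 1 lowest in both. Its relative Vamp1 was lower at 32.1, 45.4 and 33.4 in WT and 29.3, 36.4 and 37.8 in 5xFAD. Stx1a, the plasma membrane partner of Snap25, was at 34.2, 32.8 and 28.0 in WT and 35.0, 32.3 and 36.3 in 5xFAD, the lowest WT mean of this group. Nsf, the ATPase that separates SNARE complexes, was at 296, 281 and 299 in WT and 281, 256 and 289 in 5xFAD. Its adaptor Napb (beta-SNAP, the neuronal form) read 119, 150 and 129 in WT and 113, 111 and 133 in 5xFAD, so that 5xFAD replicates 1 and 2 lay below every WT library and the library labelled replicate 3 did not. Napa (alpha-SNAP, present in most tissues) read 61.2, 53.3 and 60.6 in WT and 65.6, 60.8 and 53.0 in 5xFAD.

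The calcium sensors and fusion clamps were led by Syt1, the sensor of fast release. Its FPKM was 319, 397 and 378 in WT against 290, 356 and 384 in 5xFAD. Cplx2 and Cplx1, complexins that bind the assembled SNAREs, averaged 285 ± 36.9 and 185 ± 23.9 FPKM in WT (SD, n = 3). Cplx2 read 262, 266 and 328 in WT and 287, 265 and 304 in 5xFAD, and Cplx1 read 162, 210 and 182 in WT and 155, 188 and 200 in 5xFAD. Cplx3, known from retina and from few other neurons, was the lowest gene of all at 1.80, 2.26 and 1.24 in WT and 1.30, 2.75 and 1.79 in 5xFAD. Syt11, a synaptotagmin that does not bind calcium, was the second synaptotagmin in level at 146, 186 and 176 in WT and 155, 173 and 181 in 5xFAD. Syt7, a slower sensor, averaged 61.1 ± 5.38 in WT, and Syt4 averaged 58.3 ± 11.9. Syt2, the fast sensor of many hindbrain and of parvalbumin-containing inhibitory terminals, was low and uneven: 7.12, 12.7 and 6.02 in WT and 5.86, 11.1 and 9.71 in 5xFAD. Doc2b, a sensor of spontaneous release, stood at 21.4, 29.5 and 28.0 in WT and 22.3, 26.3 and 26.1 in 5xFAD, and Doc2a at 5.21, 5.05 and 3.15 in WT and 4.44, 4.21 and 5.37 in 5xFAD.

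The vesicle membrane proteins were led by Syp (synaptophysin), at 398, 436 and 449 FPKM in WT against 396, 408 and 429 in 5xFAD. Sv2b, one of the SV2 glycoproteins, read 101, 141 and 127 in WT and 91.3, 97.7 and 129 in 5xFAD. Both libraries with high Thy1 were below every WT library for Sv2b, and the library labelled 5xFAD replicate 3 was within the WT range. Sv2a, the target of the antiepileptic drug levetiracetam, read 95.7, 111 and 101 in WT and 95.3, 97.2 and 102 in 5xFAD. Sv2c, found mainly in basal ganglia, was lowest at 6.93, 6.69 and 7.67 in WT and 5.90, 8.66 and 7.50 in 5xFAD. Syngr1 (synaptogyrin) stood at 77.7, 116 and 101 in WT and 97.7, 105 and 110 in 5xFAD, the highest relative spread of this group in WT (coefficient of variation 19.6%). Synpr (synaptoporin), abundant in mossy fibre terminals of dentate granule cells, was at 47.5, 37.5 and 48.2 in WT and 47.7, 37.1 and 49.2 in 5xFAD, lowest in replicate 2 of both genotypes. Syngr3 averaged 53.2 ± 9.19 in WT and 52.2 ± 3.82 in 5xFAD (SD, n = 3).

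Of the pair of glutamate transporters nearly all was Slc17a7, the gene with the first promoter printed above. It stood at 333, 361 and 360 FPKM in WT against 370, 310 and 345 in 5xFAD. Slc17a6 read 5.85, 9.48 and 4.41 in WT and 4.52, 10.9 and 7.98 in 5xFAD, highest in replicate 2 of both genotypes. Slc17a7 made up 97.4% to 98.8% of the pair in WT and 96.6% to 98.8% in 5xFAD. Beside these uneven low genes, the summed level of 9 neocortical and subplate markers was also highest in replicate 2, at 124 FPKM in WT and 128 in 5xFAD against 76.9 to 116 in the other libraries. The 11 thalamus and midbrain markers summed to 63.0, 59.3 and 87.5 in WT, lowest in replicate 2, and to 56.3, 67.6 and 66.7 in 5xFAD. Their median deviation from the WT mean in log2(FPKM + 1) was highest in replicate 2 of both genotypes, at 0.03 and 0.13. Whether tissue beside the hippocampus took part in the values of Slc17a6 and Syt2 was not tested.

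The proteins that cluster and prime vesicles were led by Rab3a, the Rab of secretory vesicles, at 297, 272 and 278 FPKM in WT against 279, 258 and 268 in 5xFAD. Sncb (beta-synuclein) stood at 229, 228 and 212 in WT and 209, 219 and 238 in 5xFAD. Syn2 and Syn1, the synapsins that tether the vesicle cluster, read 157, 185 and 180 (Syn2) and 143, 168 and 152 (Syn1) in WT. In 5xFAD they read 156, 153 and 181 (Syn2) and 147, 149 and 166 (Syn1). Syn3 was far lower, at 8.05, 9.36 and 8.44 in WT and 7.74, 11.96 and 8.67 in 5xFAD. Each synapsin gene holds a Timp gene within an intron on the other strand, with a strand setting not given in the sources used here, so the synapsin levels are uncertain to that extent. Rab3c read 58.5, 84.0 and 84.1 in WT and 56.0, 68.8 and 84.6 in 5xFAD, again with replicate 1 lowest. Rph3a (rabphilin, which binds Rab3) averaged 76.2 ± 2.81 in WT and 77.1 ± 6.22 in 5xFAD.

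The endocytic genes were led by Dnm1, the neuronal dynamin that pinches off vesicles, at 328, 330 and 299 FPKM in WT against 318, 281 and 325 in 5xFAD. Sh3gl2 (endophilin A1), which recruits synaptojanin to the vesicle neck, read 101, 106 and 109 in WT and 92.7, 91.6 and 104 in 5xFAD. Synj1, the lipid phosphatase that allows coat removal, read 93.8, 114 and 105 in WT and 88.1, 91.3 and 105 in 5xFAD. For both genes 5xFAD replicates 1 and 2 were below every WT library. Snap91 (AP180, a clathrin assembly protein) read 80.3, 99.0 and 93.7 in WT and 79.4, 92.1 and 93.4 in 5xFAD. Amph (amphiphysin) was the lowest of the group and among the steadiest, at 74.0, 72.0 and 78.3 in WT and 74.7, 69.0 and 72.8 in 5xFAD. Bin1, its relative, a risk gene of late-onset Alzheimer's disease that glia express too, read 103, 87.6 and 92.4 in WT and 105, 96.4 and 83.2 in 5xFAD. The summed oligodendrocyte markers were 1799, 1635 and 1623 in WT and 1984, 2002 and 1600 in 5xFAD, and their part in the Bin1 values was not tested.

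The first comparison asked which vesicle genes differed between 5xFAD and WT hippocampus, with limma on log2(FPKM + 1) and Benjamini-Hochberg adjustment over all genes tested. None of the 39 vesicle genes passed the adjusted p threshold of 0.05, and none had an unadjusted p under 0.05, with all 6 CG libraries. Differences of 5xFAD minus WT on the log2(FPKM + 1) scale ran from -0.22 (Sv2b, SE 0.165) to 0.20 (Slc17a6, SE 0.317), both at an adjusted p = 1.00 in limma. Of the 39, 25 were negative and 14 positive, with a median of -0.04, while 54.2% of the 14500 genes tested were negative with a median of -0.01. The median of the vesicle genes was 0.00087 without WT replicate 2 and 0.02 without 5xFAD replicate 1, where 19 and 17 of the 39 were negative, so its sign rested on single libraries. Across all genes limma called 1 of 14500 (0.0069%), with 424 at an unadjusted p under 0.05. All 39 members passed the filter on low values (a mean of at least 0.5 FPKM).

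The intervals show how large a difference these libraries could still hold. The 95% confidence intervals of all 39 genes lay within 1 log2 unit of zero in either direction, with a median half-width of 0.27. The widest were those of Slc17a6 (-0.53 to 0.93) and Syt2 (-0.60 to 0.73), and the narrowest was that of Amph (-0.24 to 0.14). Over all 6 libraries Snap25 was bounded to -0.30 to 0.19 and Syp to -0.28 to 0.18. Slc17a7 was bounded to -0.28 to 0.20 and Stx1a to -0.11 to 0.36. These bounds include the library labelled 5xFAD replicate 3, and those without it are given below. The 5 genes with the smallest unadjusted p were Sh3gl2 (-0.13), Sv2b, Napb (-0.16), Synj1 (-0.14) and Stx1a (0.12), all at an adjusted p of 1.00 in limma. Each kept its sign with any 1 library left out. Without WT replicate 2, Sv2b was at -0.12, Napb at -0.06 and Synj1 at -0.07, and Stx1a was at 0.04 without WT replicate 3. Without WT replicate 1, Sv2b was at -0.35 and Synj1 at -0.21, and without 5xFAD replicate 1 they were at -0.12 and -0.09. In no vesicle gene did all 5xFAD libraries lie below all WT libraries, where 2.74% of the genes tested did, or all above, where 2.92% did. On simulated data of this design limma recovered 88% of genes changed 2-fold, and 78% with the 5 libraries described next. Changes were set in every 5xFAD library and only in genes above about 5 FPKM, and no deviation was shared between genes of a library. The 88% thus need not hold for the 6 libraries, since that labelled 5xFAD replicate 3 went against its label. Nor need the rates hold for lower genes such as Doc2a and Cplx3.

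Without the library labelled 5xFAD replicate 3 the differences leaned lower, and still none of the 39 was called by limma. Replicate 1, often the lowest library of its genotype, was then 1 of 2 5xFAD libraries but 1 of 3 WT libraries. It thus weighed more in the 5xFAD mean, and the part of this weight in the lean was not tested. Over the 5 libraries 172 genes were called higher and 2 lower of 14527 (1.2%), with 858 at an unadjusted p under 0.05. Sv2b was the 1 vesicle gene at an unadjusted p under 0.05. Its FPKM averaged 123 ± 20.2 in WT (SD, n = 3) against 94.5 ± 4.50 in 5xFAD replicates 1 and 2. Its difference was -0.37 (SE 0.154, 95% interval -0.73 to -0.01, adjusted p = 0.820 in limma). The value ranged from -0.50 without WT replicate 1 to -0.26 without WT replicate 2. Next in order of p came Sh3gl2 (-0.19), Napb (-0.24), Synj1 (-0.21), Syn2 (-0.17), Rab3c (-0.26), Syt1 (-0.18), Nsf (-0.12) and Napa (0.11). Each of these 8 had an adjusted p of 0.999 in limma. Single libraries moved several of these values. Without 5xFAD replicate 1, Syt1 was at -0.03, Rab3c at -0.11, Nsf at -0.19 and Napa at 0.06, and without 5xFAD replicate 2, Syt1 was at -0.33, Rab3c at -0.41 and Nsf at -0.05. Without WT replicate 1, Rab3c was at -0.43 and Syt1 at -0.27, and without WT replicate 2, Napb was at -0.15, Syt1 at -0.11 and Napa at 0.05. With the replicate number as a block in the fit, Rab3c was at -0.17, Sh3gl2 at -0.17 and Nsf at -0.10, nearer to zero. Napb was then at -0.25 and Napa at 0.14, both further from it.

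Of the 39 vesicle genes, 30 were negative over these 5 libraries with a median of -0.07, while 54.3% of all genes tested were negative with a median of -0.02. Without 5xFAD replicate 1 the count fell to 22 of 39 and the median was -0.03, and without WT replicate 2 they were 26 and -0.03, so the lean towards lower values rested in part on single libraries. Without 5xFAD replicate 2 they were 31 and -0.12, and without WT replicate 1 the median was -0.11. In 7 genes both 5xFAD libraries lay below all 3 WT libraries (17.9%, where 7.5% of all genes tested did): Snap25, Nsf, Napb, Sv2b, Syn2, Sh3gl2 and Synj1. These 7 comprise a SNARE, the ATPase and adaptor that recycle SNAREs, a vesicle glycoprotein, a synapsin and a pair of endocytic proteins. In none did both lie above, where 10.6% of all genes did. By role, 9 of 10 genes of calcium sensing and priming were negative (median -0.04) and 5 of 7 of the fusion machinery (median -0.12). So were 5 of 7 vesicle membrane proteins (median -0.07), 5 of 7 of clustering and Rab3 (median -0.06) and 5 of 6 endocytic genes (median -0.09). Of the 2 transmitter loading genes 1 was negative, with a positive median of 0.05. The 95% intervals of 38 of the 39 lay within 1 log2 unit of zero, and that of Slc17a6 reached 1.01. Snap25 was then bounded to -0.38 to 0.22, Syp to -0.37 to 0.20, Slc17a7 to -0.35 to 0.25 and Stx1a to -0.20 to 0.38.

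**Figure D2:**
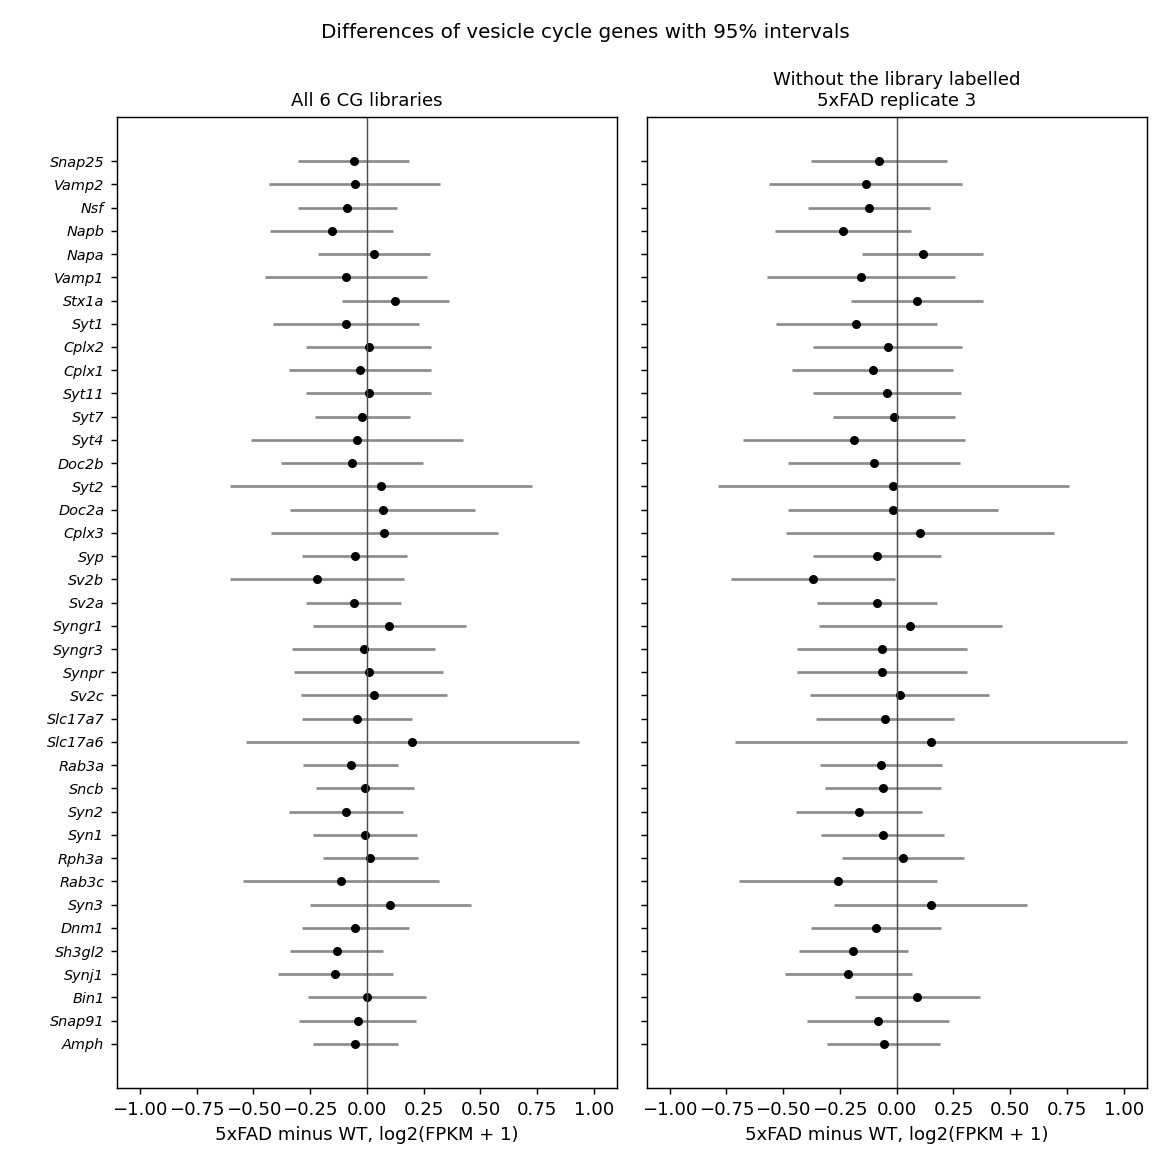
Difference of 5xFAD minus WT in log2(FPKM + 1) for each vesicle cycle gene (points) with its 95% limma confidence interval (lines), over all 6 CG libraries (left) and without the library labelled 5xFAD replicate 3 (right). On the left every interval spans zero, and on the right only that of Sv2b ends just below it, at -0.01.

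Markers of other cells moved with the same libraries. Over the 5 libraries limma called 9 of 11 microglial markers higher, and all 11 lay above WT in both 5xFAD libraries. The library labelled 5xFAD replicate 3 was left out partly for its level of these 11 markers, so that choice favoured these calls. With all 6 libraries limma called none of the 11. Among them Trem2 read 7.06, 5.55 and 6.77 FPKM in WT against 71.0 and 47.8 in 5xFAD replicates 1 and 2 (adjusted p = 0.000506 in limma). The astrocyte gene Gfap read 118, 99.1 and 95.9 in WT and 589 and 449 in 5xFAD (adjusted p = 0.000748 in limma), and none of the other 7 astrocyte markers was called. The summed astrocyte markers were 1093 to 1378 FPKM in WT against 1636 and 1750 in 5xFAD. Without Gfap the other 7 summed to 975, 1279 and 1089 in WT and 1047 and 1301 in 5xFAD, and the genotypes overlapped. The 8 oligodendrocyte markers were all positive with a median of 0.25, 6 of them (75%) above every WT library in both 5xFAD libraries, where 10.6% of all genes were, and limma called none (smallest adjusted p = 0.480). The 12 pan-neuronal markers had 9 negative differences and a median of -0.05, and summed to 1368 to 1513 in WT and to 1357 and 1410 in 5xFAD. The 13 hippocampal excitatory markers had a median of 0.02 and the 11 inhibitory markers, 10 of them negative, a median of -0.24. Among the inhibitory markers Gad1 was at -0.36 (adjusted p = 0.606 in limma) and Sst at -0.44 (adjusted p = 0.742 in limma). FPKM is relative to each library's total, and the part of these markers in the vesicle gene values was not tested. In bulk tissue fewer cells of a type and less RNA per cell cannot be told apart.

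The other genes of the vesicle cycle were not called either. Of 76 further genes of release, loading, acidification and endocytosis, 72 passed the filter on low values, and limma called none in either comparison. With 6 libraries 51 of the 72 were negative with a median of -0.06 and none had an unadjusted p under 0.05. The 4 with the smallest p were Slc32a1, the vesicular transporter of GABA (-0.19), Clta, a clathrin light chain (0.22), Sh3gl3, an endophilin (-0.21), and the epsin Epn2 (-0.15). Without the library labelled 5xFAD replicate 3, 52 were negative with a median of -0.06, and 2 had an unadjusted p under 0.05. These 2 were Syt6 (-0.48, adjusted p = 0.588 in limma) and Syngr2, the synaptogyrin found outside neurons too (0.61, adjusted p = 0.589 in limma), which were named after their values were seen. The vesicular GABA transporter read 18.4, 20.4 and 22.9 FPKM in WT against 18.0, 17.3 and 18.2 in 5xFAD, all 5xFAD libraries below all WT libraries. Rab3d, a relative of Rab3a, was wholly higher, at 2.85, 3.32 and 3.19 in WT against 3.38, 3.38 and 3.54 in 5xFAD. These were the 1 gene wholly lower and the 1 wholly higher of the 72 (1.39% each, against 2.74% and 2.92% of all genes), and Rab3d was named after its values were seen.

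A different pattern followed the replicate number. In 17 of the 39 genes (43.6%) replicate 1 was the lowest library within both genotypes, where 24.6% of the 14500 genes tested showed this. Syt4 read 44.6 FPKM in WT replicate 1 against 65.2 and 65.0 in the others, and 42.8 in 5xFAD replicate 1 against 59.2 and 67.9. Rab3c, Syt1, Vamp2, Cplx1 and Synj1 shared this order, as their values above show. In 7 genes (17.9%, against 13.9% of all genes) replicate 2 was the highest in both genotypes: Rph3a, Syt7, Doc2b, Syt2, Syn3, Slc17a6 and Cplx3. Over the 39 genes the median deviation from the WT mean in log2(FPKM + 1) was -0.10 in WT replicate 1, 0.12 in WT replicate 2 and 0.03 in WT replicate 3. It was -0.12, -0.03 and 0.05 in the libraries labelled 5xFAD replicates 1 to 3. The gap between WT replicates 1 and 2 was thus wider than the median genotype difference in either comparison. Replicate 1 of both genotypes also carried the Ddx3y and lacked the Xist signal given above, and WT replicate 1 the choroid plexus signal, whose part in this order was not tested.

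**Figure D3:**
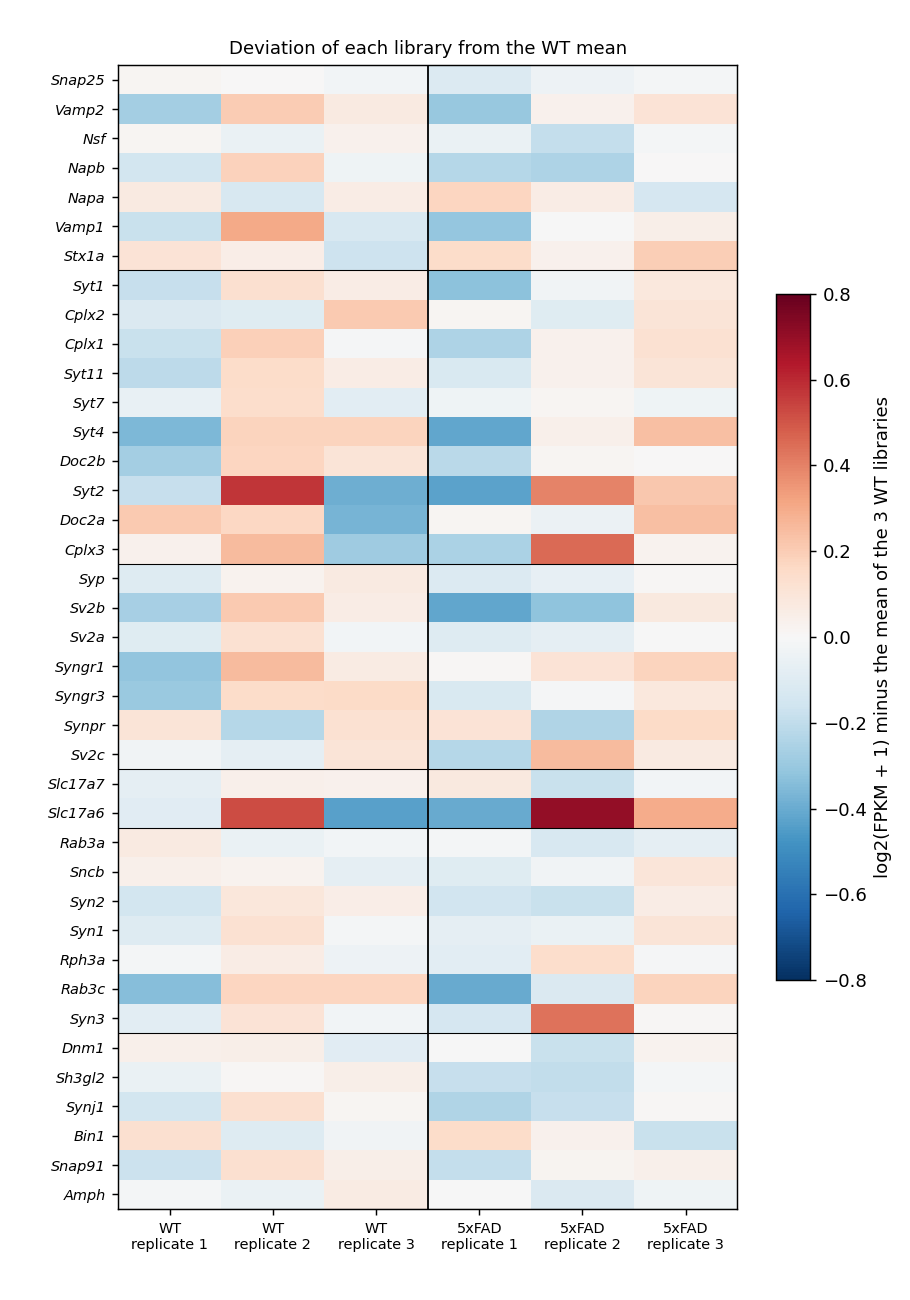
Deviation of each CG library (columns) from the mean of the 3 WT libraries in log2(FPKM + 1) for each vesicle cycle gene (rows, by role; red higher, blue lower). The first columns of both genotypes are mostly blue (medians -0.10 in WT and -0.12 in 5xFAD), and the strongest colours belong to low genes such as Slc17a6 and Syt2.

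Since FPKM is scaled to length, related genes can be compared within a library, and the share of each gene in its family was tested between genotypes by an exact two-sided permutation test. None of 24 shares passed after adjustment (smallest adjusted p = 0.96 over the exact tests), and 3 libraries against 3 cannot go below an exact p = 0.1. Syn1 made up 46.5%, 46.4% and 44.7% of the synapsins in WT and 47.3%, 47.4% and 46.7% in 5xFAD, a complete separation at the smallest p (exact p = 0.1). Syt11 made up 25.3%, 25.6% and 25.8% of the 5 synaptotagmins in WT and 28.0%, 26.2% and 25.8% in 5xFAD (exact p = 0.1), the last of these barely above the highest WT value. Syt1 made up 55.1% ± 0.564 of the synaptotagmins in WT and 53.7% ± 1.17 in 5xFAD (SD, n = 3, exact permutation p = 0.2). Without the library labelled 5xFAD replicate 3, the 5xFAD mean was 47.3% for Syn1 (exact permutation p = 0.2), 27.1% for Syt11 (exact permutation p = 0.1) and 53.1% for Syt1 (exact permutation p = 0.1). The 3 shares at the smallest p that 3 libraries against 2 allow, again 0.1 in the exact test, were those of Syt11, Syt1 and Syn2, and their adjusted p was 0.6.

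The SV2 proteins were shared between Sv2b at 52.7% ± 2.63, Sv2a at 44.2% ± 2.34 and Sv2c at 3.08% ± 0.436 in WT (SD, n = 3). Sv2b held 47.4% and 48.0% in 5xFAD replicates 1 and 2, as against 54.0% in the library labelled replicate 3, and 49.7%, 54.5% and 54.0% in WT (exact permutation p = 0.3, and 0.2 without that library). Among the complexins Cplx2 made up 60.4% ± 4.36 and Cplx1 39.2% ± 4.26 in WT, against 61.0% ± 3.40 and 38.6% ± 3.26 in 5xFAD. Syp made up 68.6% ± 1.54 of the 4 tetraspan vesicle proteins in WT and 67.2% ± 0.566 in 5xFAD. Vamp1 held 7.78% ± 0.827 of the synaptobrevin pair in WT and 7.57% ± 0.106 in 5xFAD. Rab3a held 78.9% ± 4.02 of its pair with Rab3c in WT and 79.4% ± 3.66 in 5xFAD, with 83.5% and 83.3% in replicate 1 of the 2 genotypes. Without the library labelled 5xFAD replicate 3 the 5xFAD mean was 61.4% for Cplx2, 38.1% for Cplx1, 67.5% for Syp, 7.62% for Vamp1 and 81.1% for Rab3a. The exact permutation p of these 5 shares was 0.2 to 1 with 6 libraries and 0.4 to 1 without that library.

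**Figure D4:**
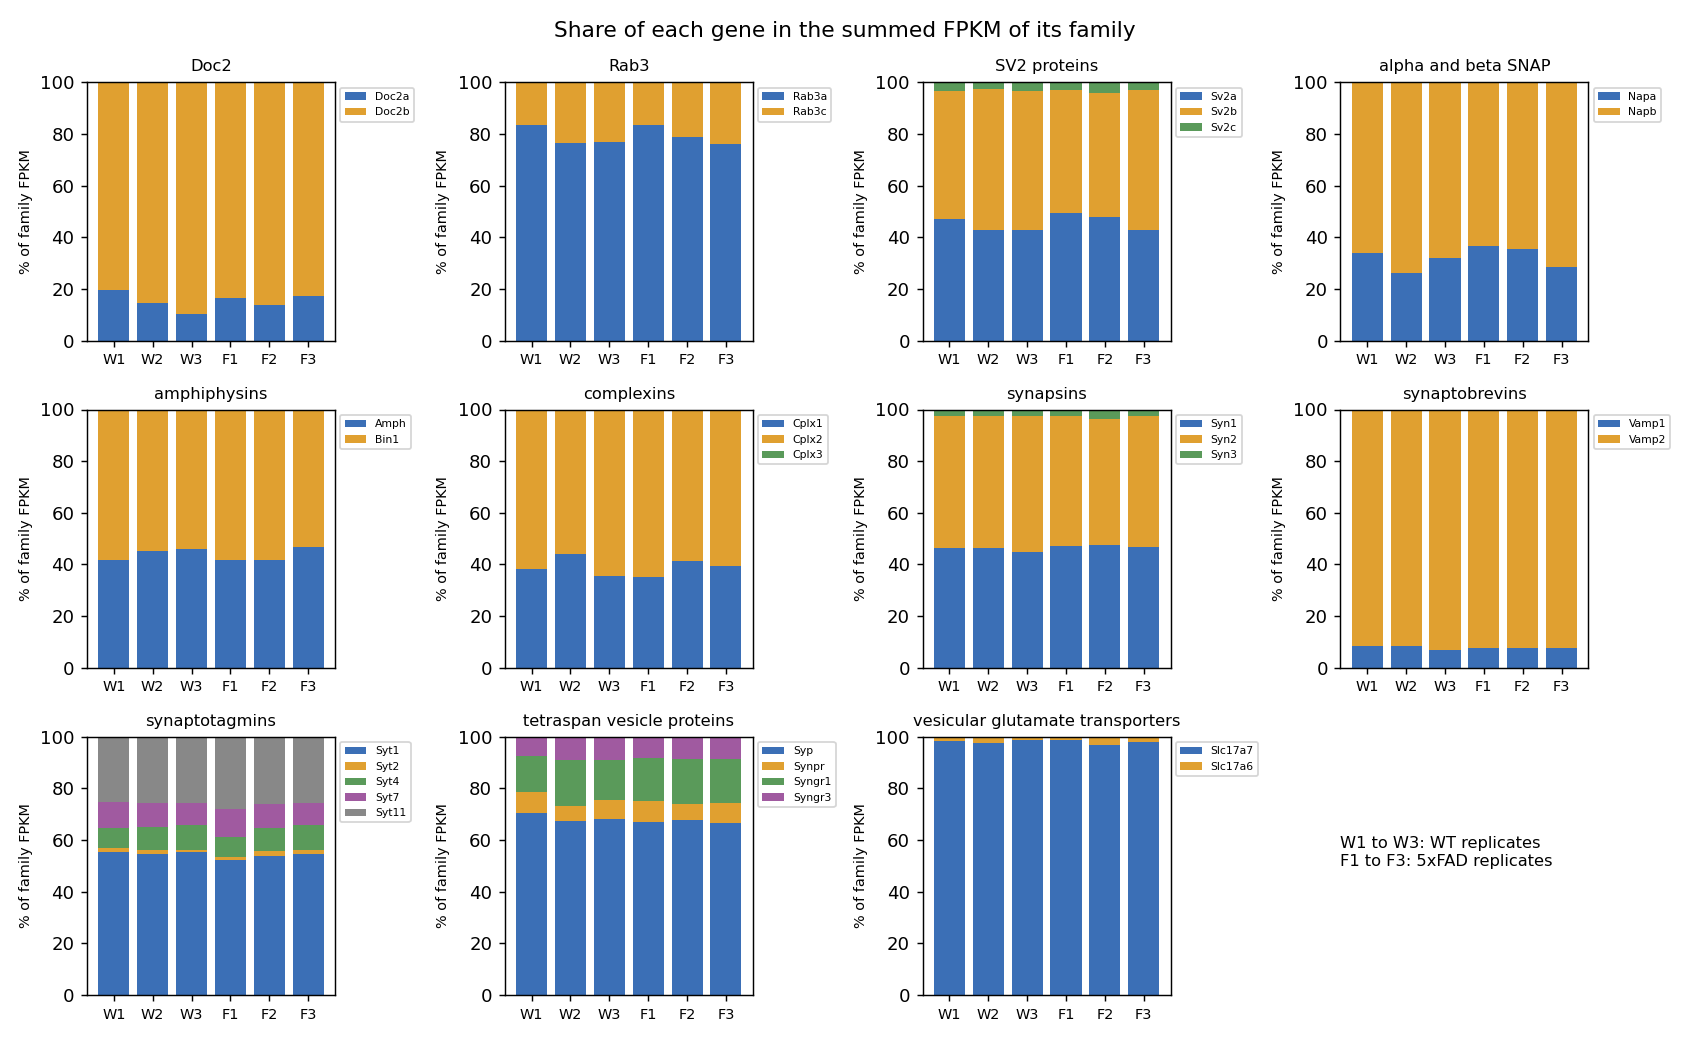
Share of each gene (coloured segments, % of the summed FPKM of its family) in the 11 families, for WT replicates 1 to 3 (W1 to W3) and 5xFAD replicates 1 to 3 (F1 to F3). Slc17a7 fills 96.6% to 98.8% and Syn1 44.7% to 47.4% of their families, while the share of Doc2a moves more between libraries, from 10.1% to 19.6%.

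Circular RNA of these genes was read from the AT table. It listed 26 junctions in 13 of the 39 genes (33.3%), against 12.1% of all genes of the CG table and 27.3% of those with a WT mean of at least 5 FPKM. Nsf had 5 junctions, Syn2 and Syt1 4 each, Amph, Napb and Sv2b 2 each, and Dnm1, Snap91, Stx1a, Sv2c, Syn1, Synj1 and Syt11 1 each. The other 26 genes had no listed junction, among them Snap25, Vamp2 and Syp, the most abundant of the 39 by FPKM. The table lists junctions that reach a signal of about 2.03 in every library of at least 1 group, so weaker ones were outside these results. Of the 26, 15 reached this level in both groups, 7 in WT alone and 4 in 5xFAD alone. A weak junction listed through 1 group alone had to be lower in some library of the other, so counts, medians and separations over the listed junctions are in part set by the listing. Junction coordinates are mm9 and as deposited, with the counting of their starts, from 0 or 1, not given in the sources used here. Some junctions share an end, as do the 2 of Napb, so junctions of a gene are not independent of each other.

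One junction outweighed the rest. The Sv2b junction chr7:82281183-82293974 had a signal of 279, 331 and 371 in WT replicates 1 to 3 and 196, 226 and 385 in 5xFAD replicates 1 to 3. It ranked 47 of 7025 in mean WT signal and held 39.8% to 57.2% of the summed signal of the 26 junctions in a library. The libraries labelled 5xFAD replicates 1 and 2 were below every WT library and replicate 3 above every one, which gave a difference of -0.33 on the log2(signal + 1) scale (SE 0.304, adjusted p = 0.936 in limma). The CG libraries of the same numbers stood in a like order for Sv2b FPKM, with 5xFAD replicates 1 and 2 below WT and replicate 3 not. The labels do not say whether AT and CG libraries of a number share an animal, and the AT table names no Thy1 junction by which the AT label could be checked. Per unit of FPKM in WT, Sv2b and Sv2c gave the most junction signal (2.67 and 2.13), and Dnm1 the least of the 13 (0.0455). This ratio sets AT signal against the FPKM of other libraries, those of CG. A low gene such as Sv2c enters it only with a junction strong enough to be listed, which favours a high ratio. Sv2c, at 7.10 FPKM, gave a signal of 26.6, 7.98 and 10.8 in WT and 10.4, 17.6 and 9.08 in 5xFAD at chr13:96800437-96818542.

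The leading junctions of the other genes were much weaker. That of Syn1 (chrX:20484202-20486708) read 76.0, 52.4 and 41.4 in WT and 61.5, 40.0 and 58.6 in 5xFAD. That of Napb (chr2:148528796-148532941) read 42.3, 46.3 and 23.9 in WT and 56.3, 35.3 and 30.6 in 5xFAD. In both the groups overlapped. The leading Syn2 junction (chr6:115204180-115213999) averaged 20.4 ± 8.22 in WT and 23.6 ± 5.36 in 5xFAD (SD, n = 3), and the Snap91 junction (chr9:86729943-86734489) 17.8 ± 9.34 and 17.4 ± 7.90. The Dnm1 junction (chr2:32165970-32183567) read 14.6, 10.7 and 18.2 in WT and 3.46, 21.2 and 15.1 in 5xFAD. Its low value in 5xFAD replicate 1 stood for 4 reads, in the library with the fewest reads. Leading junctions of Nsf (chr11:103720208-103724648) and Syt1 (chr10:108020929-108073729) averaged 14.2 ± 2.97 and 15.2 ± 7.78 in WT, against 13.3 ± 7.84 and 8.54 ± 6.90 in 5xFAD. Those of Synj1 (chr16:90987584-90991892) and Syt11 (chr3:88565647-88566471) averaged 9.81 ± 5.72 and 9.01 ± 4.70 in WT, against 6.72 ± 4.76 and 7.47 ± 2.58 in 5xFAD.

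Between genotypes limma called none of the 26 junctions, and none of all 7025 (0%), with 399 of the latter and 2 of the 26 at an unadjusted p under 0.05. On the recovered reads edgeR called 0 and DESeq2 1 of the 7025, none of them in a vesicle gene. The 26 had 16 negative differences and a median of -0.15, while 54.3% of all junctions were negative with a median of -0.06. Without WT replicate 1 the median of the 26 was -0.37. The precision was low. On simulated data limma recovered 0% of junctions changed 2-fold and 1% of those changed 4-fold, and edgeR on reads recovered 9% and 72%. The simulations were unlike. That for limma took its spread from the data, while that for edgeR used a fixed spread and raised only junctions with more reads. The edgeR rates thus need not hold for junctions with few reads, and cannot be set beside those of limma. In limma the 95% intervals of only 3 of the 26 lay within 1 log2 unit of zero. A signal of 3 reads corresponded to 0.678 to 2.60, depending on the library.

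The junctions with the smallest p lay in Amph, Syt1 and Stx1a. The Amph junction chr13:19186621-19196228 read 0, 1.14 and 0.936 in WT (0, 5 and 4 reads) and 4.33, 3.84 and 3.82 in 5xFAD (5, 17 and 16 reads), a difference of 1.64 (SE 0.542, adjusted p = 0.716 in limma). It was listed through the 5xFAD group alone, which favours such a difference. The other Amph junction, chr13:19229404-19233935, leaned the opposite way, at 7.86, 4.10 and 7.25 in WT and 5.20, 2.26 and 1.20 in 5xFAD (-1.02, adjusted p = 0.918 in limma). The Syt1 junction chr10:108268161-108339371 read 4.12, 4.10 and 5.15 in WT (11, 18 and 22 reads). In 5xFAD it read 0.866, 2.94 and 0.478 (1, 13 and 2 reads), a difference of -1.29 (SE 0.594, adjusted p = 0.862 in limma). Another of Syt1, chr10:108020929-108069019, read 18.0, 9.12 and 12.4 in WT and 4.33, 5.88 and 7.17 in 5xFAD (-1.03, adjusted p = 0.905 in limma). The Syt1 junction chr10:108064308-108079454 was on average higher in 5xFAD, with 13.1, 18.2 and 3.51 in WT and 9.53, 23.7 and 21.3 in 5xFAD. The Stx1a junction chr5:135517800-135524974 read 4.12, 3.87 and 6.08 in WT (11, 17 and 26 reads). In 5xFAD it read 1.73, 1.36 and 2.39 (2, 6 and 10 reads), a difference of -1.01 (adjusted p = 0.914 in limma).

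All 5xFAD libraries lay below all WT libraries in 4 of the 26 junctions, where 6.65% of all junctions did, and above in 2, where 4.43% did. Of these 6, 5 were listed only through the group where they were high, as were 487 of the 778 such junctions in the table (62.6%), so the listing favoured these separations and nothing is read from their number. The exception was the second Syt1 junction. The 4 were the Stx1a junction, the first and second of the Syt1 junctions just described, and chr6:115186031-115204750 of Syn2. The 2 were the first Amph junction and a second of Sv2b, chr7:82301492-82302335, at 1.50, 4.33 and 1.87 in WT and 4.33, 4.52 and 5.74 in 5xFAD. The authors' deposited table gave an adjusted p under 0.05 to 264 of the 7025 junctions (3.76%) and to 3 of the 26. In the authors' deposited table these were, all listed through 1 group alone, the first Amph junction (log2 ratio 2.37, adjusted p = 6.59e-15), the Stx1a junction (log2 ratio -1.31, adjusted p = 0.00758) and the first Syt1 junction (log2 ratio -1.58, adjusted p = 0.0121). The edgeR test on the recovered reads gave these 3 an adjusted p of 0.998.

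Summed over the junctions of a gene, the 13 host genes gave no call either. Of the 2948 host genes in the table limma called 0 (0%), with 105 at an unadjusted p under 0.05 and none of them among the 13, and on the recovered reads edgeR called 0 and DESeq2 1. The 13 had 10 negative differences and a median of -0.15, while 56.2% of all hosts were negative with a median of -0.05. The median of the 13 was -0.36 without WT replicate 1, -0.29 without 5xFAD replicate 3 and -0.24 without WT replicate 2. Stx1a was the 1 host with all 5xFAD libraries below all WT libraries (5.5% of all hosts), and none lay wholly above (3.66%). Its value is that of the 1 Stx1a junction, listed through WT alone, so the listing favoured this separation and nothing is read from it. For Syt1 the summed signal was 48.6, 55.1 and 29.5 in WT and 15.6, 46.8 and 39.4 in 5xFAD (-0.47, SE 0.438, adjusted p = 0.998 in limma). For Sv2b it was 281, 335 and 373 in WT and 200.1, 231 and 391 in 5xFAD (-0.32, SE 0.268, adjusted p = 0.998 in limma). Nsf and Syn2, with 5 and 4 junctions, were the steadiest in WT, at 44.7 ± 2.45 and 38.8 ± 1.42 (SD, n = 3), against 41.2 ± 8.86 and 43.5 ± 7.90 in 5xFAD.

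**Figure D5:**
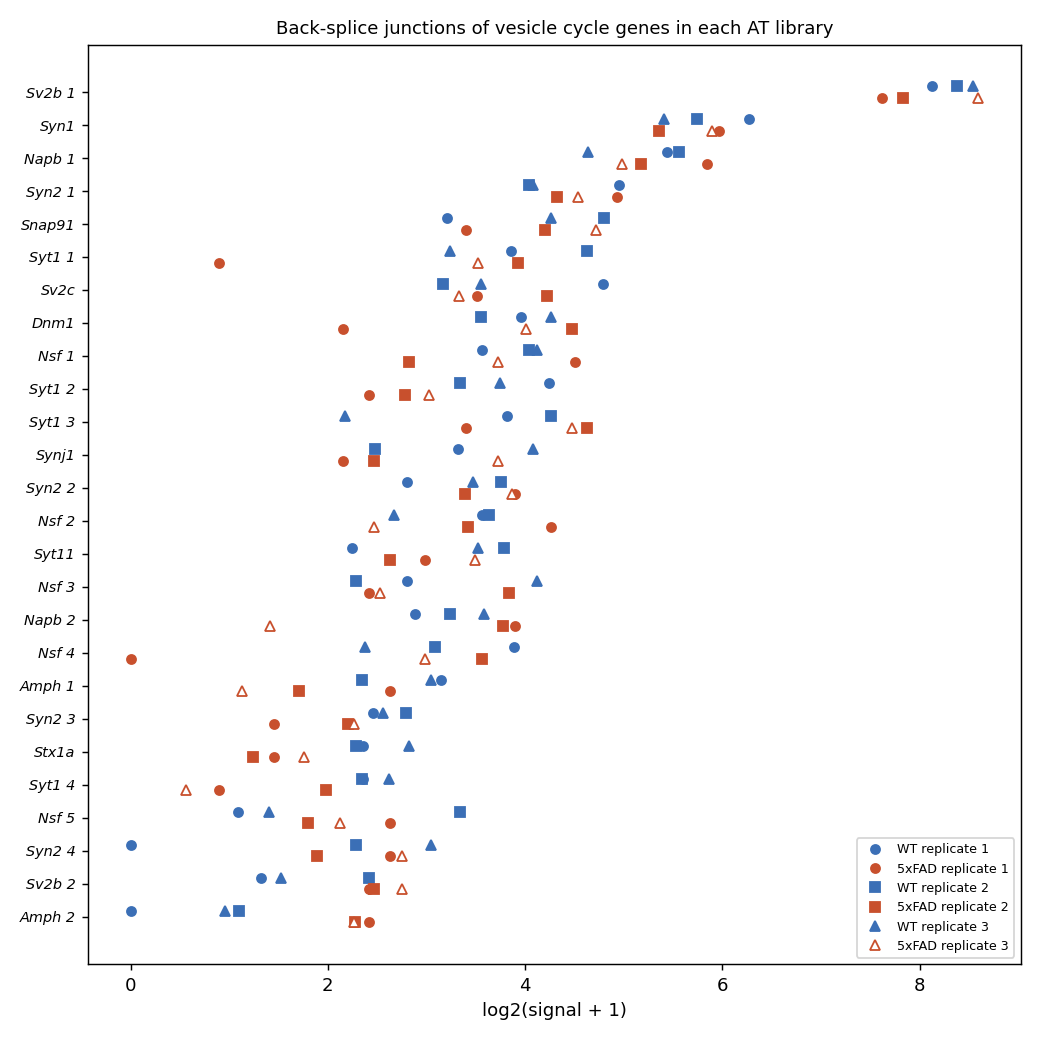
Signal of the 26 back-splice junctions of vesicle cycle genes in each AT library, as log2(signal + 1), ordered by mean WT signal and numbered within a gene in that order. Blue points are WT and red points 5xFAD replicates, with an open triangle for 5xFAD replicate 3; the strongest junction, of Sv2b, stands apart at the top, and the points of the weaker ones spread widely, with 4 wholly lower and 2 wholly higher in 5xFAD, 5 of these 6 listed only through their high group.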

How the data were processed

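Hippocampal RNA of WT and 5xFAD mice was analysed from a gene table (CG) and a junction table (AT), 3 libraries per group. The CG values are FPKM as deposited by the authors, with quantifier and denominator not given in the sources used here. AT values are a signal per interval deposited by the authors, beside a log2 ratio and p-values, raw and adjusted, from the authors, per the file headers. The deposited log2 ratio equals that of the group means with 0.1 added. Per the submitters' processing notes the build was mm9 and a tool was DESeq, and per the labels' protocols rRNA was depleted with Ribo-Zero. FPKM is relative to each library's total, so it shows shares and not amounts, and the CG read depth is unknown.

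Groups came from the sample titles. Each table was tested two-sided on log2(value + 1) by limma, variance trend included, for features with a mean of at least 0.5, Benjamini-Hochberg adjusted over all features and called under 0.05. Fold changes on this scale understate the change of low genes. AT signals were summed per host gene for a second test. Within each AT library the values were multiples of 1 step (100% of them, to within 0.01), and the reads this gave were tested with edgeR (quasi-likelihood) and DESeq2 as alternatives. Intervals and read floors cover counting or replicate error only, and PCR duplicates were not separable. Versions were R 4.3.3, limma 3.58.1, edgeR 4.0.16 and DESeq2 1.42.0. The limma and edgeR fits were tested on simulated data. Members, lists and tests were chosen with earlier results of these data known. Genes were named by rule: members by role, p or junction, other vesicle genes by the 4 smallest p, and markers by call or p. Promoter windows came from RefSeq (GRCm38.p6) by symbol, and 30 of 39 members matched. Alternatives were other pseudocounts, filters, scalings and weights, a replicate block, and leaving out each library. Vesicle gene levels rescaled to TPM were added after the data were seen. Some of the other vesicle cycle genes are not reported here by name.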

Additional observations from a re-analysis of the deposited data

How the results depend on the processing

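None of the 39 vesicle genes, 26 junctions or 13 hosts was called under any alternative run. No family share could pass with any set of libraries, since the smallest exact p these group sizes allow is 0.1. Counts over all genes moved more. With 6 CG libraries 1 gene was called, and leaving out single libraries gave 1 to 174, the 174 without the library labelled 5xFAD replicate 3. Without that library, a filter at a mean of 5 gave 61 calls of 9649 genes, and leaving out a further library gave 35 (without 5xFAD replicate 1) to 174, with 52 without 5xFAD replicate 2, 84 without WT replicate 3 and 106 without WT replicate 2. In the AT table array quality weights called 2 junctions and 1 host, and DESeq2 1 junction and 1 host. Leaving out single libraries moved the median of the 39 genes between -0.06 on the log2 scale, without WT replicate 1, and 0.02, and with 5 CG libraries between -0.12 and -0.03. It moved the median of the member junctions between -0.37 and -0.13, and that of member hosts between -0.36 (without WT replicate 1) and -0.12, with -0.29 without 5xFAD replicate 3. The 6-library difference of Syn3 ran from -0.0617 without 5xFAD replicate 2 to 0.222 without 5xFAD replicate 1, and that of Syngr1 from -0.0600 without WT replicate 1 to 0.226 without WT replicate 2, each positive with any other library left out. The cause of these shifts was not tested. Same-numbered libraries of the 2 genotypes correlated in their deviations at 0.584, 0.347 and 0.0781 (CG) and 0.123, 0.165 and 0.0574 (AT) for replicates 1 to 3. The replicate 1 libraries of CG, which share the Ddx3y signal, correlated most, but replicate 3 fell short of 0.1 in both tables, and its 5xFAD library correlated best with WT replicate 2 (0.275 in CG), so the numbers were not taken to pair the libraries. With a replicate block 1 CG gene was called with 6 libraries and 201 with 5, and no AT junction or host, with 0 vesicle genes among them. The shallowest AT library, 5xFAD replicate 1, held 568 reads over the 26 junctions against 1633 to 2874 elsewhere, and without it their median was -0.13.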

Other observations

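Among the 72 other vesicle cycle genes measured, the subunits of the vesicular proton pump, which acidifies vesicles for loading, were represented by 8 genes with WT means of 53.9 to 474 FPKM. Their differences of 5xFAD minus WT in log2(FPKM + 1) ran from -0.08 to 0.08 with 6 libraries and from -0.14 to 0.10 without the library labelled 5xFAD replicate 3, 7 of 8 negative in both, and limma called none (smallest adjusted p = 1.00 and 0.999). Atp6v0c, of its membrane ring, read 494, 448 and 481 FPKM in WT against 497, 428 and 437 in 5xFAD. Atp6v1b2 read 196, 211 and 201 in WT and 195, 178 and 205 in 5xFAD. The third vesicular glutamate transporter, Slc17a8, stood at 1.36 to 1.54 in WT and 1.17 to 1.39 in 5xFAD. Of the 76 other vesicle cycle genes 31 had a listed junction (40.8%), against 13 of the 39 described above (33.3%). These genes were chosen after their values were seen.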
